A study of Arabidopsis thaliana with 66 samples.

Results

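Stamens of Arabidopsis thaliana were compared between stage 15 and stage 12 of flower development, with the 3 arrays of stage 15 stamens set against the 3 arrays of stage 12 stamens out of 66 arrays in the series. These 6 arrays were chosen by their tissue label alone. Both groups came from wild-type Col-0 plants grown on soil at 23 °C in continuous light at 65% relative humidity, and total RNA was labelled with biotin and hybridised to one-colour ATH1 arrays. Sepals, petals and carpels of the same accession, light and temperature at the same 2 stages (3 arrays per group) and mature pollen (3 arrays) served for comparison. For mature pollen the labels give 23 °C and no humidity. The labels do not say how many plants or flowers were pooled, or whether the 3 arrays of a group came from separate plants. The p-values therefore measure only the spread between arrays of a group, pooled over all 66 arrays in 22 groups. Besides the groups compared here, that pool holds whole flowers, pedicels, floral mutants and flowers grown at 20 °C.

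A stamen consists of a filament and an anther, in which the tapetum, a nourishing cell layer, feeds the developing pollen and then breaks down. Each pollen grain holds a vegetative cell, which will form the pollen tube, and the sperm cells or their precursor. In closed buds of stage 12 the pollen completes its development, whereas by stage 15 the flower is open, the filament has elongated and the anther has split and released pollen. A whole stamen therefore mixes filament, anther wall, tapetum remnants and pollen, and in such bulk RNA fewer cells of a type and less RNA per cell cannot be told apart.

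Each probe set has a linear signal intensity that the authors computed with MAS5 and scaled to a common level per array. A signal of 22.6, the 40th percentile of all values, was taken as the floor, and a group was called below the floor where none of its arrays exceeded it. The 6 stamen arrays had between 12799 and 13017 probe sets above the floor, and the lowest correlation between replicates over probe sets was 0.986. The 3 mature pollen arrays had between 11798 and 12162 above it and a lowest correlation of 0.959. Their median signals were 23.9 to 25.2, against 31.5 to 32.8 on the stamen arrays, so the floor lies nearer the median in pollen. A gene was called when limma's adjusted p was below 0.05 and the change at least 2-fold, on the scale of log2(signal + 11.3), which understates changes of dim genes. All log2 fold changes are stage 15 over stage 12.

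Many genes differed between stage 15 and stage 12 stamens, in nearly equal numbers in each direction. Of 17646 tested probe sets, 4241 (24.0%) were called, 2125 (12.0%) higher and 2116 (12.0%) lower in stage 15 stamens, and the median log2 fold change over all of them was 0.01. The change reached 4-fold for 579 of the higher and 640 of the lower probe sets, and 16-fold for 60 and 125. Among the higher probe sets, 611 were below the floor in stage 12 stamens, and among the lower, 628 were below the floor in stage 15 stamens. Every probe set that moved at least 2-fold also passed the test, so the fold threshold alone set these counts. A further fit, chosen after seeing the data, set all signals below the floor to the floor, which left 3588 calls. The stage 15 and stage 12 arrays did not overlap for 11969 probe sets, or 67.8% of those tested.

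**Figure D1:**
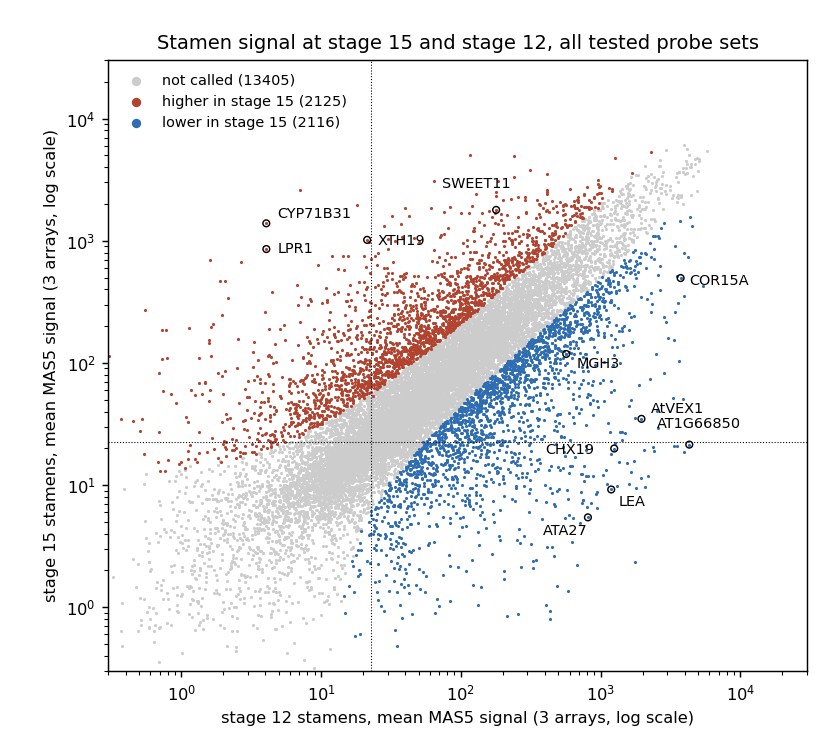
Mean signal of each of 17646 tested probe sets in stage 15 stamens (vertical, log scale) against stage 12 stamens (horizontal, log scale), each the mean of 3 arrays; red points are called higher, blue points lower and grey points not called, and dotted lines mark the floor of 22.6. CYP71B31 and LPR1 lie far above the diagonal with stage 12 means below the floor, while ATA27 and LEA lie far below it with stage 15 means below the floor.

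The label was checked against anther markers. The list of 9 tapetum and pollen wall genes summed to between 79.6 and 92.5 in stage 15 stamens, against 1346 to 1359 in stage 12 stamens. The 17 genes of mature pollen and pollen tubes summed to between 7366 and 7665 in stage 15 stamens and between 7788 and 8072 in stage 12 stamens, and to no more than 1364 on any sepal, petal or carpel array of either stage. The tapetum list also summed to 787 to 1077 in mature pollen and 409.9 to 441 in stage 15 carpels, above stage 15 stamens, so its sum is not specific to the anther wall. Of 15 carpel, ovule and nectary markers, 10 were below the floor in stage 15 stamens and 13 in stage 12 stamens, and 1, the nectary gene SWEET9, was called higher. Their sums were 432 to 525 in stage 15 stamens and 312 to 336 in stage 12 stamens, against 4787 to 5237 in stage 15 carpels. The 14 sepal and petal markers summed to 4423 to 4663 in stage 15 stamens and 902 to 971 in stage 12 stamens. Of these markers 3 were below the floor in stage 15 stamens and 10 in stage 12 stamens. Their sums were 6673 to 7967 in stage 15 sepals, 4854 to 6222 in stage 15 petals and 4135 to 4416 in stage 15 carpels. This list thus moved with stage, and its stage 15 sum in stamens lay between those of carpels and petals. The part of other tissue in this was not tested.

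Genes of the tapetum and early anther were lower in stage 15 stamens. On the tapetum and pollen wall list 5 of 9 tested members were called lower and 0 higher, against 12.0% of all probe sets in each direction, with a median log2 fold change of -1.60. ATA27 (AT1G75940), an anther beta-glucosidase gene, was below the floor on all 3 stage 15 arrays, against 794, 822 and 819 on the stage 12 arrays. Its signal in stage 15 was at least 35.9-fold lower, and the fitted log2 fold change was -5.62 (SE 0.10, adjusted p = 5.13e-46). SPL (AT4G27330), which starts sporocyte formation, and AMS (AT2G16910), a bHLH factor of the tapetum, were below the floor in stage 15 and stood at 65.7 ± 3.52 and 60.5 ± 2.04 in stage 12 stamens (SD, n = 3), at least 2.90-fold and 2.67-fold lower in stage 15. EMS1 (AT5G07280), a receptor kinase that specifies the tapetum, read 15.5, 34.1 and 35.5 in stage 15 and 103, 93.4 and 121 in stage 12 stamens. Its groups did not overlap, and the log2 fold change was -1.60 (SE 0.19, adjusted p = 1.07e-10). The sugar exporter gene SWEET8 (AT5G40260), needed for the pollen wall, was the fifth called member, with a log2 fold change of -3.03. The other 4 members, LCR66, SHT, ROXY1 and ROXY2, were below the floor in both stages. Mature pollen was below the floor for every member but EMS1 and SWEET8, so most of the list's sum in pollen came from these genes.

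Genes of the pollen grain itself were called in both directions. Among 13 tested genes of mature pollen and pollen tubes, 2 were called higher and 5 lower (median -0.55), or 1 and 4 without a pseudocount. The higher count is near the 12.0% of all probe sets called in each direction. On the male germline list 5 of 6 were lower and 0 higher (median -2.44). The 5 lower pollen genes, ACT11, ACT12, CHX19, CHX15 and chx28, also stand on the lists of actin and ion transport genes, so these lists are not separate evidence. MGH3 (AT1G19890), a histone H3 gene of sperm cells, gave 143, 114 and 97.9 on the stage 15 arrays and 592, 529 and 583 on the stage 12 arrays, against 929.6 ± 180.1 in mature pollen (SD, n = 3). All stage 15 values lay below all stage 12 values (log2 fold change -2.17, SE 0.17, adjusted p = 3.04e-17). The tetraspanin gene TET11 (AT1G18520) read 35.7, 18.5 and 14.7 in stage 15 and 196, 203 and 219 in stage 12 stamens, a log2 fold change of -2.71, and TET12 (AT5G23030) was below the floor in stage 15 and at 49.1 ± 7.78 in stage 12, a call lost with signals below the floor set to the floor (-0.82). AtVEX1 (AT5G62850), a SWEET gene named for expression in the vegetative cell and also on this list, had 35.9, 34.9 and 33.7 in stage 15 and 1846, 1997 and 2039 in stage 12 stamens. This fall, by 5.42 on the log2 scale (SE 0.20, adjusted p = 1.27e-31), left a stage 15 level far under the 1098 ± 544 of mature pollen. SWEET7, also on the germline list, was below the floor on every mature pollen array, so of the 5 lower members MGH3, TET11 and TET12 are the known sperm genes. FBL17 (AT3G54650), an F-box gene of the germ cell cycle, had a log2 fold change of -0.84 and was not called.

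Of 15 tested AGAMOUS-like MADS-box genes 3 were lower and 0 higher, against 12.0% of all probe sets in each direction. AGL66 (AT1G77980) measured 111, 118 and 101 in stage 15 and 466, 471 and 518 in stage 12 stamens, and AGL104 (AT1G22130) 92.9, 104 and 104 in stage 15 and 523, 518 and 484 in stage 12 stamens. Both genes encode factors that activate pollen maturation genes, and in both the stage 15 values were all lower (log2 fold changes -2.03 and -2.22). AGL30 (AT2G03060) fell by 1.09, a call lost after quantile normalization (log2 fold change -0.91), and AGL65 (AT1G18750) had -0.83, under the 2-fold threshold. AGL18 (AT3G57390) stood at 565 ± 40.3 in stage 15 and 540.3 ± 44.9 in stage 12 stamens.

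Some genes abundant in mature pollen were higher in stage 15 stamens. The 2 on the mature pollen list were AT59 and ANX2, and the others here were chosen as large increases with pollen above the floor or as called members of other lists. AT59 (AT1G14420), a pectate lyase-like gene of pollen, gave 1671, 1623 and 1677 in stage 15 and 733, 718 and 703 in stage 12 stamens, against 9931 ± 693 in mature pollen (log2 fold change 1.19, SE 0.13, adjusted p = 2.82e-12). The expansin gene EXPA4 (AT2G39700) gave 1508, 1581 and 1584 in stage 15 and 275, 201 and 297 in stage 12 stamens, with 9943 ± 1026 in pollen. Both genes were higher on every stage 15 array than on any stage 12 array. AT4G33860, for which the tables hold no name, read 769, 784 and 702 in stage 15, was below the floor in stage 12 and averaged 6689.6 ± 843 in pollen, at least 33.2-fold higher in stage 15 than in stage 12. TET13 (AT2G03840), another tetraspanin gene, was at 100.2 ± 8.15 in stage 15 and below the floor in stage 12, with 1053 ± 89.8 in pollen. The serine carboxypeptidase-like gene scpl38 (AT2G05850), the endoglucanase gene GH9B11 (AT2G44560) and the kinase gene cdc2cAt (AT5G39420) had log2 fold changes of 2.81, 1.87 and 1.53. PLIM2a (AT2G45800), an actin-bundling protein gene of pollen, had 0.84 and was not called.

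Across all probe sets the direction of the stamen change was related to presence in pollen. All 3 mature pollen arrays exceeded the floor for 1523 of the 2116 lower probe sets (72.0%), for 662 of the 2125 higher ones (31.2%) and for 54.0% of all tested probe sets. Conversely, pollen was below the floor for 16.0% of the lower and 42.2% of the higher probe sets, against 25.5% of all tested. Of the 628 probe sets that were below the floor in stage 15 stamens, 286 were above it on all 3 pollen arrays. The labels used here do not give how much pollen each stamen sample held, and its part in these shares was not tested.

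**Figure D2:**
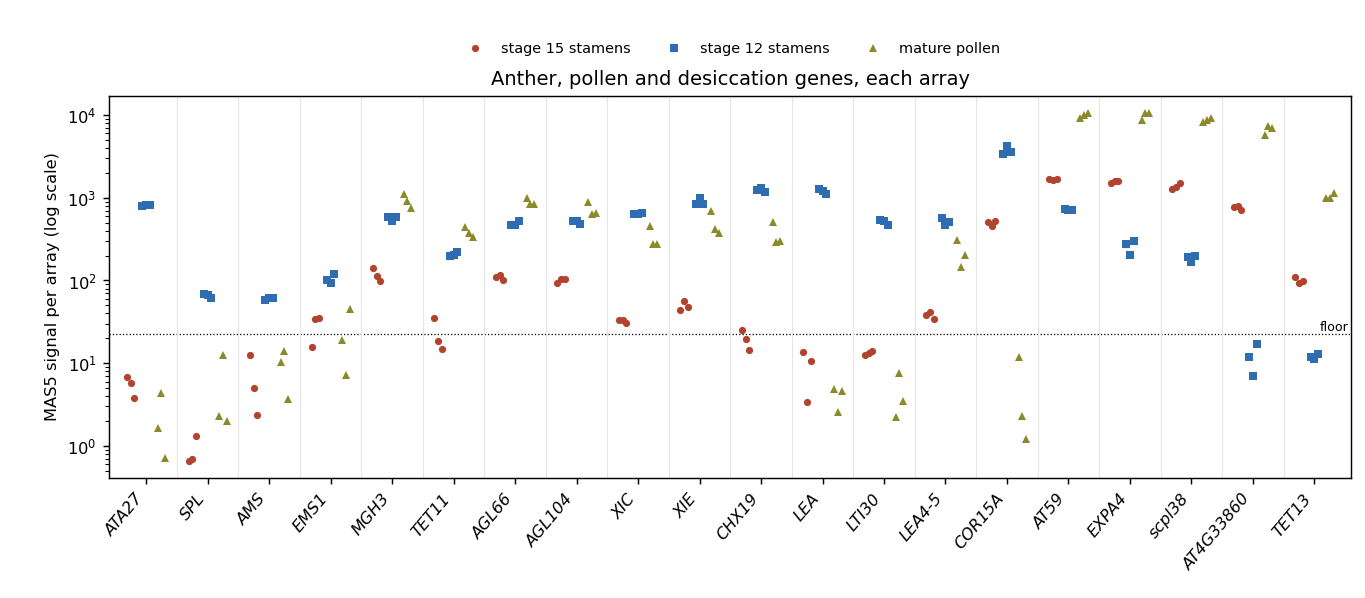
Signal on each array (log scale) for 20 anther, pollen and desiccation genes, with stage 15 stamens (red circles), stage 12 stamens (blue squares) and mature pollen (olive triangles), 3 arrays each; the dotted line is the floor of 22.6, and values under it have no order. Stage 15 points lie under stage 12 points from ATA27 to COR15A and above them from AT59 to TET13.

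Several genes of the cytoskeleton and of vesicle traffic, on which pollen tube growth depends, were lower. On the list of actin and vesicle genes 7 of 23 tested members were lower, against 12.0% of all probe sets in each direction, with a median of -0.31. Only 1 was higher, WLIM1 (log2 fold change 1.09, named after its value was seen), or 0 after quantile normalization. Class XI myosins, motors that carry organelles along actin, had 3 of 5 tested genes lower. XIC (AT1G08730) read 33.1, 32.9 and 31.0 in stage 15 and 642, 634 and 649 in stage 12 stamens, and XIE (AT1G54560) 43.6, 57.0 and 47.7 in stage 15 and 845, 980.1 and 843 in stage 12. The stage 15 arrays of both were far below the stage 12 arrays (log2 fold changes -3.90, SE 0.13, and -3.89, SE 0.13). XIJ fell by 1.74, while XIH and XI-I had 0.25 and 0.25 and were not called. The actin genes ACT12 (AT3G46520) and ACT11 (AT3G12110), the exocyst gene SEC15A (AT3G56640) and the GTPase gene RAB6A (AT2G44610) were lower, with log2 fold changes of -1.53, -1.08, -1.73 and -1.19. In the organ comparison described below, 4 members of the actin and vesicle list were called lower against all 3 other organs. ACT11 and RAB6A were not among them. NET2C (AT5G10500) and NET2D (AT2G22560), of a family of actin-binding proteins, had -1.72 and -1.09. The call for NET2C was lost without a pseudocount and that for NET2D after quantile normalization (-0.95) or without stage 15 replicate B (-0.997).

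All 4 tested cation/H+ exchanger genes fell, against 12.0% of all probe sets called lower, and calmodulin-like genes moved both ways. The exchanger list was built after values were seen, and CHX19, CHX15 and chx28 are also on the mature pollen list. CHX19 (AT3G17630) gave 25.3, 19.8 and 14.6 in stage 15 and 1242, 1329 and 1186 in stage 12 stamens (log2 fold change -5.35, SE 0.15, adjusted p = 1.95e-37). These exchangers swap potassium or other cations for protons across membranes inside the cell. CHX20 (AT3G53720) had 27.7, 23.1 and 24.2 in stage 15 and 339, 383 and 333 in stage 12, with 6.89 ± 4.91 in pollen. CHX15 (AT2G13620) and chx28 (AT3G52080) fell by 1.79 and 1.23 on the log2 scale, the last a call lost without a pseudocount. CHX19, CHX15 and chx28 were above the floor on every pollen array, whereas CHX20 was below it. CML42 (AT4G20780), a calcium sensor gene, read 42.2, 39.7 and 44.2 in stage 15 and 723, 723 and 735 in stage 12, whereas its relative CML41 (AT3G50770) read 371, 371 and 363 in stage 15 and was below the floor in stage 12, at least 16.3-fold higher in stage 15. CML38, also below the floor in stage 12, had a log2 fold change of 1.56, a call lost with signals below the floor set to the floor (0.55).

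Sugar exporter genes of the SWEET family moved in opposite directions. SWEET proteins let sucrose or hexoses pass membranes along their gradient. Of 16 tested SWEET genes 9 were higher and 4 lower in stage 15 stamens, against 12.0% of all probe sets in each direction. Their median log2 fold change was 1.18. SWEET11 (AT3G48740), a sucrose exporter, gave 1695, 1933 and 1737 in stage 15 and 183, 180.3 and 173 in stage 12 stamens (log2 fold change 3.24, SE 0.09, adjusted p = 1.66e-36). SAG29 (AT5G13170), also known as a senescence-associated SWEET, gave 510.1, 536 and 506 in stage 15 and 67.9, 77.4 and 73.5 in stage 12. In both genes the groups were well apart. SWEET2 (AT3G14770) and the nectary gene SWEET9 (AT2G39060) stood at 177 ± 2.81 and 149.7 ± 16.3 in stage 15 and were below the floor in stage 12, at least 7.84-fold and 6.62-fold higher. SWEET9 is also the only called member of the carpel, ovule and nectary markers, and the part of nectary tissue in its increase was not tested. SWEET17 read 54.4, 43.3 and 51.1 in stage 15 and was likewise below the floor in stage 12, a call lost with signals below the floor set to the floor (0.84). SWEET4 (AT3G28007) had 1706 ± 73.4 in stage 15 and 485 ± 21.8 in stage 12, and SWEET13 (AT5G50800) 1774 ± 31.1 in stage 15 and 535 ± 31.5 in stage 12. SWEET1 and SWEET14 rose less, by 1.32 and 1.04, and the call for SWEET14 was lost without stage 15 replicate C (0.96).

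The 4 SWEET genes that fell, SWEET3, SWEET7, SWEET8 and AtVEX1, had log2 fold changes of -4.32, -3.95, -3.03 and -5.42. SWEET3 (AT5G53190) was below the floor on every stage 15 array and read 494, 476 and 505 in stage 12, at least 21.8-fold lower in stage 15. SWEET7 (AT4G10850) read 24.4, 25.1 and 24.7 in stage 15 and 523, 556 and 553 in stage 12, and SWEET8 26.2, 21.97 and 27.0 in stage 15 and 305, 282 and 270.2 in stage 12. The stage 15 values of these 3 genes lay near or below the floor. TMT3 (AT3G51490), a sugar carrier gene of the vacuole membrane, gave 25.4, 12.9 and 24.0 in stage 15 and 678, 847 and 839.7 in stage 12 (log2 fold change -4.66, SE 0.17, adjusted p = 4.65e-32), whereas its relative TMT1 (AT1G20840) gave 133, 133 and 138 in stage 15 and 140.0, 123 and 119.8 in stage 12 and was not called (adjusted p = 0.465). SWEET10 was between 639 and 781 in stage 15 and between 889 and 1049 in stage 12, a difference under 2-fold.

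**Figure D3:**
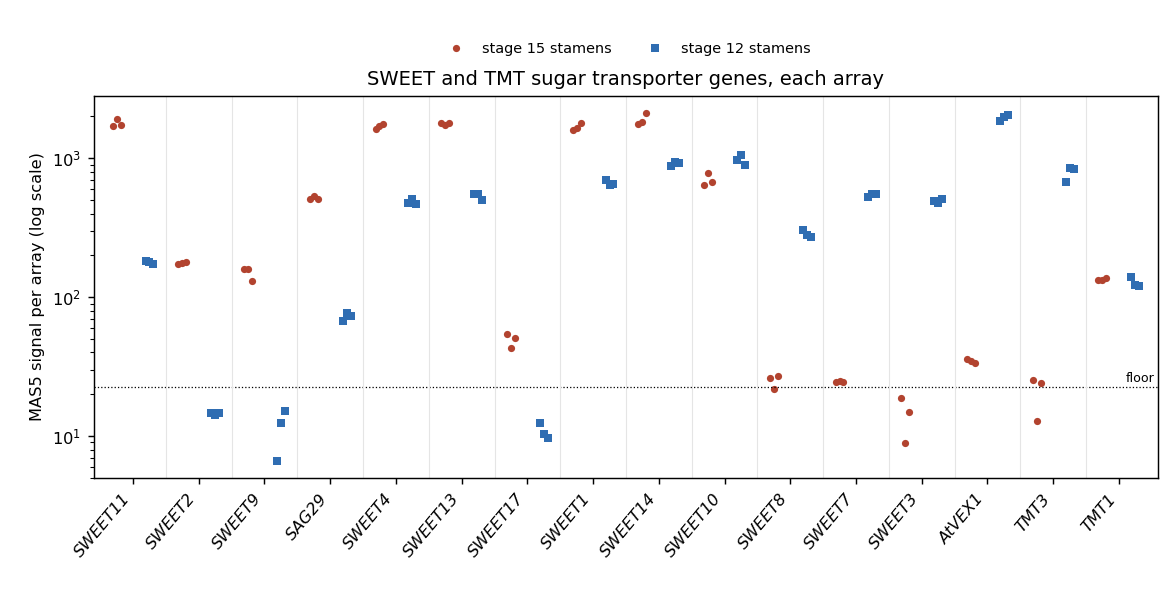
Signal on each array (log scale) of 14 SWEET genes and the vacuolar sugar carriers TMT3 and TMT1, with stage 15 stamens (red circles) left of stage 12 stamens (blue squares), 3 arrays each; the dotted line is the floor of 22.6. The red points are above the blue ones from SWEET11 to SWEET14 and below them for SWEET10, SWEET8, SWEET7, SWEET3, AtVEX1 and TMT3, while the TMT1 points overlap.

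Most genes of desiccation protection were lower in stage 15 stamens. LEA proteins and dehydrins shield proteins and membranes in drying cells such as maturing pollen and seeds. Of 8 tested members of a list of LEA, dehydrin and cold-regulated genes 7 were lower and 0 higher in stage 15, with a median of -3.15. The share of all probe sets was 12.0% in each direction. This list was built after values were seen. It counts HVA22C, whose name places it in another gene family, among the 7, and it left out COR27, a cold-regulated gene. COR27 was not called, but it was called higher in some alternatives, such as without a pseudocount (log2 fold change 1.16). On the wider desiccation and abscisic acid list 7 of 10 tested members were lower and 1 higher. The dehydrin family gene LEA (AT2G21490) was below the floor in stage 15 and read 1273, 1205 and 1096 in stage 12, at least 52.7-fold lower in stage 15, with a fitted log2 fold change of -5.91 (SE 0.16, adjusted p = 7.39e-38). LTI30 (AT3G50970), another dehydrin gene, was below the floor in stage 15 and read 539, 526 and 469 in stage 12, at least 22.6-fold lower. COR15A (AT2G42540) and COR15B (AT2G42530), which encode LEA-type proteins of the chloroplast stroma, were lower on every stage 15 array. COR15A had 505, 455 and 525 in stage 15 and 3412, 4183 and 3619 in stage 12, and COR15B had 36.7, 44.6 and 35.4 in stage 15 and 667, 753 and 693 in stage 12. LEA4-5 and LEA18 fell by 3.42 and 2.75 on the log2 scale, and HVA22C by 1.46, the last a call lost with signals below the floor set to the floor (-0.90). Mature pollen was below the floor for LEA, LTI30, COR15A, COR15B and LEA18, but read 217 ± 81.0 for LEA4-5. COR47 (AT1G20440) gave 5273, 5468 and 5943 in stage 15 and 2681, 3169 and 2914 in stage 12, with a log2 fold change of 0.93 that missed the 2-fold threshold, and RD2, a further member of the wider desiccation and abscisic acid list, was higher (log2 fold change 1.45, named after its value was seen).

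Cell wall genes moved in both directions, with 14 of 46 tested members higher and 9 lower (median 0.05), against 12.0% of all probe sets in each direction. XTH19 (AT4G30290), which encodes an enzyme that cuts and rejoins xyloglucan, changed most on this list. Its signal was 1033, 1008 and 1009 in stage 15 and 22.2, 24.3 and 17.6 in stage 12 (log2 fold change 4.98, SE 0.16, adjusted p = 9.56e-35), with 1.12 ± 0.308 in pollen. Expansins loosen walls as cells enlarge, and 5 of 15 tested were higher and 2 lower (6 and 5 without a pseudocount, 4 and 3 after quantile normalization, 3 and 2 with a pseudocount equal to the floor). The main count of 2 lower expansins is near the 12.0% share. EXPA8 (AT2G40610) read 1945, 2004 and 1973 in stage 15 and 567, 563 and 571 in stage 12, and the expansin-like gene EXLA1 (AT3G45970) 973, 1022 and 1015 in stage 15 and 168, 173 and 143 in stage 12. Both rose clearly, unlike EXPA24 (AT5G39310), which read 115, 117 and 102 in stage 15 and 789.9, 716 and 729.6 in stage 12. Endoglucanase genes of the GH9 family split, 3 of 12 higher and 4 lower, with GH9C2 at 1.49 and GH9B18, GH9B17 and GH9B5 at -2.29, -2.26 and -1.96. The pectin methylesterase gene PME61 was below the floor in stage 15 and at 91.3 ± 7.70 in stage 12. TBL25 and TBL45, of a family that acetylates wall polymers, rose by 2.61 and 2.59.

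Genes linked to organ opening and secondary walls were called in 1 direction. On that list 3 of 6 tested members were lower and 0 higher, against 12.0% of all probe sets in each direction. ADPG1 (AT3G57510), a polygalacturonase that acts where anthers and fruits split, read 164, 157 and 165 in stage 15 and 484, 493 and 531 in stage 12 (log2 fold change -1.57, SE 0.13, adjusted p = 1.07e-15). IRX15 (AT3G50220), needed for xylan, and ALC (AT5G67110), a bHLH factor of fruit opening, were below the floor in stage 15 and at 37.8 ± 10.1 and 54.3 ± 5.62 in stage 12. Both calls were lost with signals below the floor set to the floor (-0.51 and -0.95). HCT, an enzyme of lignin precursors, had -0.85 and was not called.

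Called genes of the auxin and jasmonate lists were higher in stage 15. Of 11 tested auxin genes 5 were higher and 0 lower. The share to set beside this and the other hormone lists is 12.0% of all probe sets in each direction. GH3.17 (AT1G28130), an enzyme that joins auxin to amino acids, gave 874, 915 and 943 in stage 15 and 172, 148 and 132 in stage 12 (log2 fold change 2.52, SE 0.13, adjusted p = 1.97e-25). WES1 (AT4G27260), of the same enzyme family, the auxin repressor gene IAA18, the homeobox gene HAT2 and the auxin synthesis gene YUC2 rose by 1.63, 2.10, 2.03 and 1.22. IAGLU (AT4G15550), which glucosylates auxin and is not on that list, gave 713, 767 and 782 in stage 15 and was below the floor in stage 12, at least 33.3-fold higher. Of 5 tested jasmonate genes 3 were higher: AIM1 (AT4G29010), a beta-oxidation enzyme, read 2164 ± 83.9 in stage 15 and 824 ± 31.3 in stage 12, and the bHLH factors MYC3 and MYC4 rose by 1.41 and 1.31. JMT, which methylates jasmonate, had 0.52 and was not called. On the list of gibberellin, brassinosteroid, ethylene and cytokinin genes 2 of 5 were higher and 0 lower, the gibberellin receptor genes GID1B and GID1A (1.65 and 1.03). That list had 1 member lower without a pseudocount, after quantile normalization and without stage 12 replicate C, and 0 called with signals below the floor set to the floor, where GID1B had 0.73. Calls for MYC4 and GID1A were lost with signals below the floor set to the floor (0.12 and 0.99) and with a pseudocount equal to the floor (0.87 and 0.84), and that for GID1A also after quantile normalization (0.99), without stage 12 replicate A (0.90) and without stage 15 replicate A (0.96).

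Senescence and autophagy genes were higher for 6 of 18 tested members and lower for 0 (median 0.73), against 12.0% of all probe sets in each direction. GAMMA-VPE (AT4G32940), a vacuolar protease of ageing tissue, gave 1894, 2011 and 2067 in stage 15 and 369, 371 and 343 in stage 12 (log2 fold change 2.43, SE 0.10, adjusted p = 8.86e-30). BETA-VPE, of the same family, and the autophagy genes ATG8E and ATG8H rose by 1.13, 2.03 and 1.23. WRKY6 (AT1G62300), a senescence-related factor, read 116, 127 and 128 in stage 15 and 32.9, 28.3 and 30.8 in stage 12. With SAG29 these make up the 6.

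Some chloroplast and photosynthesis genes were higher and none were called lower. Of 19 nuclear photosynthesis genes 6 were higher and 0 lower (median 0.91). Of 69 chloroplast-encoded genes 23 were higher and 0 lower (median 0.79), with 67 of the 69 log2 fold changes above 0. Across all probe sets 12.0% were called in each direction. RCA (AT2G39730), which activates Rubisco, gave 1788, 1767 and 1786 in stage 15 and 397, 426 and 412 in stage 12 (log2 fold change 2.08, SE 0.11, adjusted p = 2.57e-25). The photosystem I genes PSAN and PSAE-1, the carbon fixation genes SBPASE and PRK and NdhS, of the chloroplast NDH complex, rose by 1.99, 1.28, 1.60, 1.15 and 1.63. The chloroplast gene psaA read 469, 896 and 689.9 in stage 15 and 95.1, 159 and 289.9 in stage 12, and rbcL, of the large Rubisco subunit, 183, 224 and 148 in stage 15 and 44.4, 83.0 and 80.0 in stage 12. The log2 fold changes of psaA and rbcL had SEs of 0.24 and 0.16, and stage 12 replicate A was the lowest array for both psaA and rbcL. Without it 17 of the 69 were called higher, and the other alternatives gave 21 to 31. Sepal and petal markers moved with these genes: 5 of 13 tested were higher (RCA, CYP71B31, CML41, UGT76B1 and JAL23), 10 without a pseudocount and 8 after quantile normalization, and UGT76B1 lost its call with signals below the floor set to the floor (0.92), with the sums given above, and the part of other tissue in these increases was not tested.

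The largest increase of a named gene was that of CYP71B31 (AT3G53300), a cytochrome P450 gene, with 1303, 1318 and 1544 in stage 15 and every stage 12 array below the floor, at least 61.4-fold (log2 fold change 6.52, SE 0.14, adjusted p = 9.16e-43). LPR1 (AT1G23010), a multicopper oxidase known from the root response to low phosphate, read 830.1, 883 and 853 in stage 15 and was below the floor in stage 12, at least 37.8-fold higher. APS4 (AT5G43780), an ATP sulfurylase that starts sulfate assimilation, read 1579, 1614 and 1592 in stage 15 and 41.5, 40.6 and 45.3 in stage 12. In all 3 genes the arrays of a stage were close together and the stages far apart. ECS1 (AT1G31580) read 1276, 1338 and 1353 in stage 15 and 29.6, 28.7 and 25.9 in stage 12. AT5G10770, named only by its locus, read 3073, 2755 and 3479 in stage 15 and 64.2, 69.0 and 60.8 in stage 12. P450 genes were higher for 6 of 15 tested and lower for 0, and 3 were higher with a pseudocount equal to the floor and 4 with signals below the floor set to the floor. UDP-glycosyltransferase genes, which attach sugars to small molecules, were higher for 10 of 34 and lower for 5 (8 and 3 with signals below the floor set to the floor). The increases were led by IAGLU and UGT72E3 (at least 8.71-fold). Beside both families stands the 12.0% of all probe sets called in each direction, and the 5 lower glycosyltransferase genes are near that share.

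The largest decreases were of genes that the tables name only by locus. AT1G66850 gave 22.3, 25.8 and 16.2 in stage 15 and 3907, 4952 and 4078 in stage 12 (log2 fold change -7.05, SE 0.18, adjusted p = 1.43e-39). AT1G23240, AT1G71680, AT2G16750, AT4G02140 and AT1G47980 were all below the floor in stage 15, with stage 12 means of 2198, 1791, 1943, 1645 and 2046, and were at least 97.2-fold, 79.2-fold, 85.9-fold, 72.7-fold and 90.5-fold lower. AT1G23240 read 10.1, 27.1 and 27.9 in pollen, around the floor, whereas AT1G71680, AT2G16750, AT4G02140 and AT1G47980 averaged 463, 797, 749.6 and 1057 there. Beside LEA, ATA27, AtVEX1 and CHX19 above, GSTU20 (AT1G78370), a glutathione transferase gene, was at least 23.8-fold lower, and the subtilase gene SBT4.13 (AT5G59120) read 64.2, 70.3 and 85.2 in stage 15 and 2139, 2425 and 2239 in stage 12. ATP-citrate lyase, which supplies cytosolic acetyl-CoA for lipids, had 3 of 4 subunit genes lower, against 12.0% of all probe sets. ACLA-2 fell by 2.27, ACLB-1 by 1.92 and ACLA-1 by 1.49 on the log2 scale, while ACLA-3 had 0.58 and was not called.

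**Figure D4:**
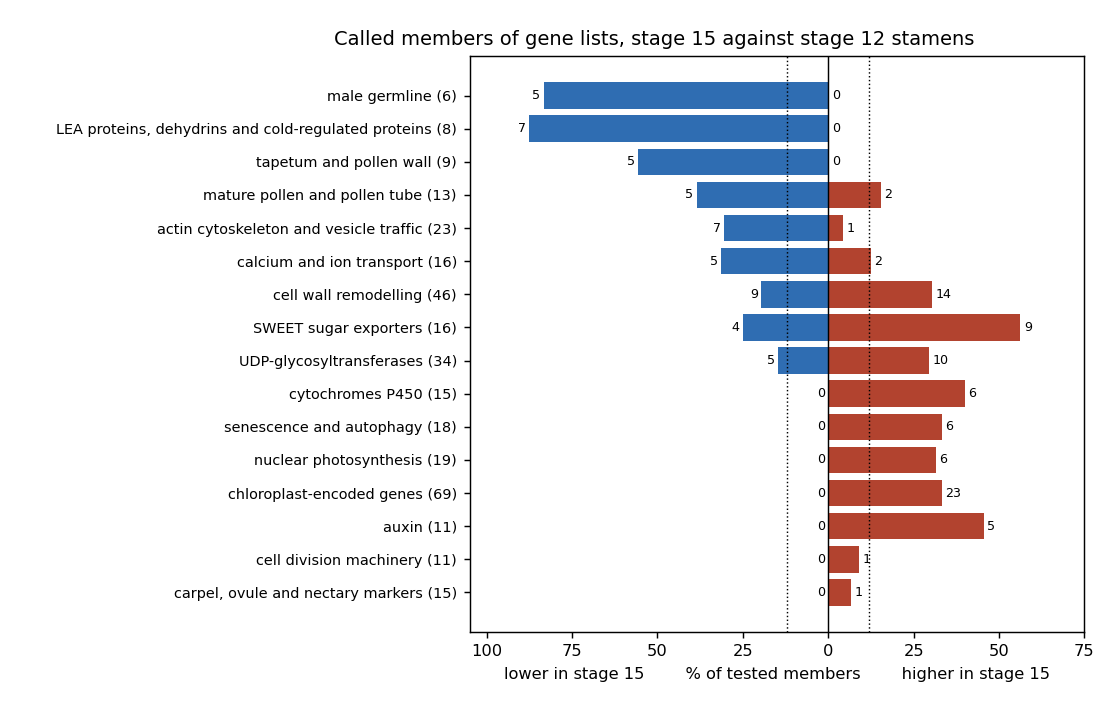
Share of tested members (number in parentheses) of 16 gene lists called higher (red, right) or lower (blue, left) in stage 15 than in stage 12 stamens, with the number of called members at each bar and dotted lines at 12.0%, the share of all tested probe sets called in each direction. The male germline, LEA and tapetum bars point left only, and the photosynthesis, senescence, auxin and P450 bars right only.

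Of 11 tested cell division genes 1 was higher (cdc2cAt) and 0 lower (median -0.46), or 1 higher and 2 lower without a pseudocount, near the 12.0% of all probe sets called in each direction. AUR1 read 347, 319.7 and 282 in stage 15 and 459, 486 and 425 in stage 12, a log2 fold change of -0.52 under the threshold, and AUR2 295, 295 and 298 in stage 15 and 268, 279.8 and 288 in stage 12, which differed by 0.08 (adjusted p = 0.461). Both encode Aurora kinases of mitosis.

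Whether these changes were shared with the other floral organs was tested as the difference between the stage 15 over stage 12 changes. The stamen change differed from the sepal change for 4924 probe sets (27.9%), from the petal change for 4155 (23.5%) and from the carpel change for 4173 (23.6%). It was higher than the changes of all 3 organs for 527 probe sets (2.99%), of which 465 were also called higher in stamens, and lower for 916 (5.19%), of which 875 were also called lower. Thus 41.4% of the lower but 21.9% of the higher stamen probe sets moved further in stamens than in every other organ. With signals below the floor set to the floor, 465 were higher and 848 lower against all 3 organs, of which 426 and 791 were among the 527 and 916. Pollen was above the floor for 70.6% of those 916 and 23.3% of those 527.

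Some large increases were as large or larger in petals, and others were not. CYP71B31 changed by 6.52 in stamens, 2.63 in sepals, 5.74 in petals and 0.31 in carpels on the log2 scale. Since its stage 12 stamen signals were below the floor, the difference from petals has no settled sign: it was 0.78 as fitted and -0.38 with those signals set to the floor. SWEET11 changed by 3.24 in stamens and by 4.77 in petals, a difference of -1.53 (adjusted p = 5.35e-15). GAMMA-VPE changed by 2.43 in stamens and by 4.09 in petals, a difference of -1.66 (adjusted p = 1.13e-15). XTH19, by contrast, rose by 4.98 in stamens and changed by 0.52, -0.996 and 0.30 in sepals, petals and carpels, differing from the nearest of them by 4.46. AT4G33860 and EXPA4 also rose more in stamens than in each other organ, with smallest differences of 4.04 and 2.18. EXPA8 rose by 1.78 in stamens and changed by -3.87 in sepals, with adjusted p = 3.29e-46 for that difference. COR15A fell in stamens and changed by -1.71 in sepals, 0.01 in petals and 0.96 in carpels, and LTI30, with -4.41 in stamens, had changes between 0.31 and 0.76 in the other organs. ACLA-2 had -2.27 in stamens and -4.05 in petals, and GSTU20 -4.46 in stamens and -4.02 in petals, and neither was called against all 3 organs. By list, all 5 lower tapetum genes and all 5 lower members of the germline list were called lower against all 3 organs. The latter are AtVEX1, SWEET7, MGH3, TET11 and TET12, the last not with signals below the floor set to the floor. The 4 exchangers, the 3 myosins and 6 of the 7 lower members of the LEA list were also called lower against all 3 organs. Of all tested probe sets 5.19% were called lower in this way. The exchanger, myosin and LEA lists were built after values were seen, and they share members with other lists. None of the called auxin, jasmonate, senescence or P450 genes were called against all 3.

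**Figure D5:**
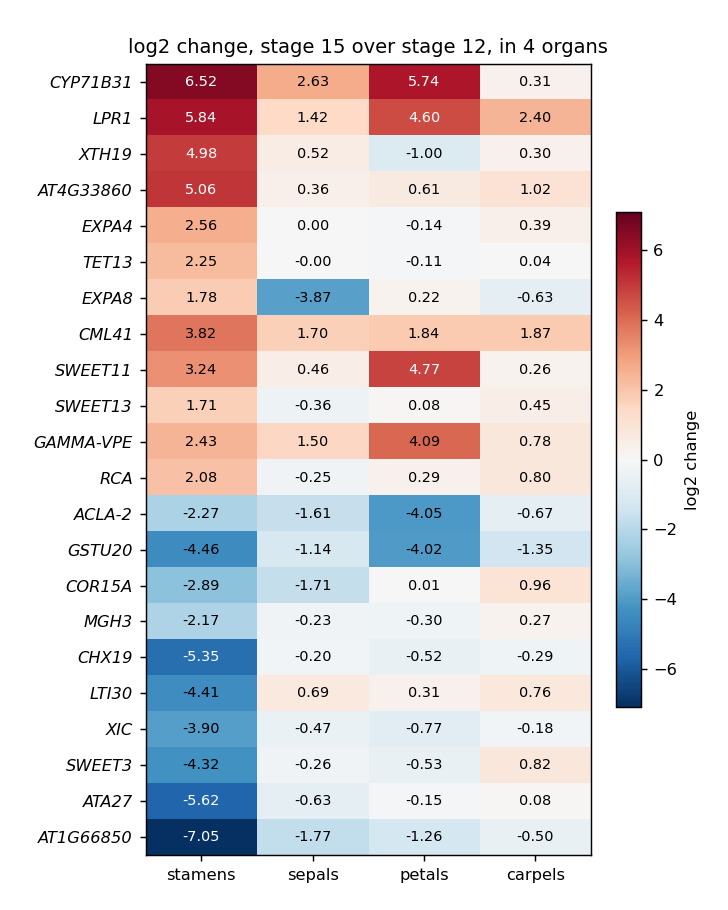
Log2 change at stage 15 over stage 12 (colour and number in each cell) of 22 genes in stamens, sepals, petals and carpels, each from the means of 3 arrays per stage. CYP71B31 and SWEET11 are high in stamens and petals, XTH19 in stamens, and the cells of ATA27, XIC, CHX19 and SWEET3 are strongly negative in stamens alone among the 4 organs.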

How the data were processed

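RNA of 66 ATH1 arrays in 22 groups of 3 was measured. The deposited signal intensity of each probe set is linear and was computed by the authors with MAS5, per the submitters' processing notes (version not given in the sources used here). After removing 2% of values at each end, array means ran from 100.007 to 100.022. From 22810 probe sets, 64 controls and 5100 that exceeded the floor on all arrays of no group were left out. Values were taken as log2(intensity + 11.3), with the deposited intensity as given and a pseudocount of 0.5 times the floor of 22.6. Group means were fitted over all 66 arrays in limma 3.58.1 (R 4.3.3; lmFit, eBayes with trend, 44 residual degrees of freedom), with Benjamini-Hochberg adjustment within each comparison. A call needed an adjusted p below 0.05 and a 2-fold change. Differences between organs were tested as interaction contrasts. "At least" folds set the measured group's mean against the floor. On simulated data with 17545 probe sets, the stamen comparison recovered 96% of 3-fold and 100% of 8-fold changes with 0 false calls, and the sepal, petal and carpel differences 92%, 91% and 95% of 3-fold changes, with 1 false call for petals. The changes were put only into probe sets above the floor on all 3 stage 12 stamen arrays, with noise independent between probe sets. These rates therefore do not cover genes such as the 611 higher probe sets that were below the floor in stage 12.

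Probe sets were named from the platform annotation, 13513 with 1 gene, 503 with several and 8730 with none, and only those with 1 gene were named. Of genes with several tested probe sets, the one with the highest mean was used. The named genes are the 15 largest increases and decreases, up to 6 called and 2 uncalled members per list, the 8 largest changes each way against all other organs, and the 8 largest increases with pollen below and above the floor. The comparison and the lists were chosen with earlier results of these data known, and the lists of gene families (such as SWEET, CHX, LEA and P450) were built from annotation names after values were seen. No arrays held identical values. Alternatives were other pseudocounts, no filter, 2 other normalizations, fewer arrays, robust variances, a replicate block, leaving out each array and, added after seeing the data, setting signals below the floor to the floor. Promoter motifs and sequences were not used here.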

Additional observations from a re-analysis of the deposited data

Results flagged for a closer look

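The change at stage 15 over stage 12 differed between organs, by a test of the difference itself, for 527 probe sets in which the stamen change was higher than the sepal, petal and carpel changes and for 916 in which it was lower. Of the genes named in the text 64 belonged to these sets, 20 higher and 44 lower. Each value below is the log2 difference between the stamen change and the change of the organ nearest to it, and every one is past 2-fold and the adjusted p threshold against all 3 organs.

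Among genes whose stamen change was higher, wall genes differed as follows: XTH19 by 4.46, EXPA4 by 2.18, EXPA8 by 1.56, GH9C2 by 1.43, TBL25 by 1.14 and TBL45 by 1.41. For sugar exporters the differences were SWEET13 by 1.26, SWEET9 by 1.03 and SWEET17 by 1.03. Genes that were also sepal and petal markers differed less than XTH19, CML41 by 1.95, UGT76B1 by 1.87, RCA by 1.28 and JAL23 by 1.25, and the photosystem gene differed, PSAN by 1.13. The remaining ones were AT4G33860 by 4.04, TET13 by 2.21, UGT72E3 by 1.86, LPR1 by 1.23, ECS1 by 1.21 and TUB5 by 1.34.

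Among genes whose stamen change was lower, tapetum and early anther genes differed as ATA27 by -4.99, SPL by -2.48, SWEET8 by -2.46, AMS by -1.77 and EMS1 by -1.34. Members of the germline list, tetraspanin and MADS-box genes gave AtVEX1 by -2.37, SWEET7 by -3.57, TET11 by -2.11, MGH3 by -1.87, TET12 by -1.20, TET15 by -3.22, AGL66 by -1.76 and AGL104 by -1.65. Desiccation genes gave LEA by -5.13, LTI30 by -4.72, LEA4-5 by -3.67, LEA18 by -2.58, COR15B by -1.48 and COR15A by -1.18. Transport and calcium genes gave CHX19 by -4.83, CHX20 by -2.91, CHX15 by -1.38, chx28 by -1.15, CML42 by -3.52, SWEET3 by -3.79 and TMT3 by -3.76. Motor, actin and vesicle genes gave XIE by -3.34, XIC by -3.14, XIJ by -1.37, SEC15A by -1.12, NET2C by -1.74 and IQD16 by -1.36. Wall, protease and regulator genes gave PME61 by -2.49, GH9B18 by -1.99, GH9B17 by -1.91, EXPA24 by -1.59, SBT4.13 by -1.75 and WRKY42 by -2.07. The genes known only by locus gave AT1G66850 by -5.28, AT1G23240 by -5.28, AT4G02140 by -4.74, AT1G47980 by -4.41, AT1G71680 by -4.10 and AT2G16750 by -3.87.

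Many of these genes had stamen signals below the floor in 1 stage, where the fitted differences are no exact sizes. With signals below the floor set to the floor, 6 of the 64 were no longer called against all 3 organs: the smallest difference was then 0.07 for LPR1, 0.92 for UGT76B1, 0.41 for SWEET17, -0.82 for TET12, -0.81 for IQD16 and -0.92 for WRKY42. SWEET9 remained called, at 1.13.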

How the results depend on the processing

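The count of probe sets called between stage 15 and stage 12 stamens, 4241, stayed within 1.5 times under every alternative run. It was 5821 without a pseudocount, 3495 with a pseudocount equal to the floor, 4274 without the filter on dim probe sets, 4064 after quantile normalization, 4279 after dividing each array by its 75th percentile, and between 4246 and 4301 when 1 array was left out. With signals below the floor set to the floor, an alternative added after seeing the data, it was 3588. It was 4241 both with robust variance estimates and in a fit of only the compared arrays, since the fold threshold set the calls while 11824 and 11207 probe sets passed the adjusted p threshold. The counts against other organs ranged over the same alternatives from 4163 to 5933 for sepals, 3344 to 5311 for petals and 3419 to 5358 for carpels. With the replicate letter as a block the counts were 4241, 4924 for sepals, 4219 for petals and 4174 for carpels, and no call of a named gene changed. In the 2 stamen groups the deviations of arrays with the same letter correlated between -0.01 and 0.02, and those with different letters between -0.02 and 0.02. With 3 arrays per group this cannot show whether arrays with the same letter shared plants or a harvest, and the labels do not say. Of 286 genes open to naming, none reversed; 27 lost their call with signals below the floor set to the floor (for CYP71B5 all 6 stamen signals were then equal), 17 with a pseudocount equal to the floor, 11 after quantile normalization and 3 to 10 when 1 stamen array was left out. Signals near the floor limit what can be said of dim genes: a gene below it has only a bound, and its order among arrays was not read.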

Other observations

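Smaller gene families and lists are given here against a background of 12.0% of all probe sets called in each direction. Of 10 tested genes of RALF-like peptides, signals that bind receptor kinases, 3 were higher and 1 lower (median 0.75). RALFL22 read 446, 518 and 542 in stage 15 and 124, 96.9 and 104 in stage 12 stamens, and RALFL34 read 61.2, 60.1 and 54.0 in stage 15 and 284, 284 and 313 in stage 12 stamens, so these relatives moved in opposite directions without overlap. Tetraspanin genes were higher for 2 of 14 and lower for 5 (1 and 3 with signals below the floor set to the floor), and TET15 had the largest change, with 29.4, 25.5 and 28.4 in stage 15 and 502, 501 and 458 in stage 12 stamens (log2 fold change -3.67, SE 0.13, adjusted p = 8.49e-33). Among 6 tested subtilase genes, which encode proteases, 1 was higher (SBT3.5, 1.72, a call lost in that setting) and 3 lower (SBT1.3 at -2.51). Of 14 tested IQD genes, which encode calmodulin-binding proteins, 1 was higher and 4 lower, with IQD16 at -1.64, a call also lost in that setting, which left 1 higher and 1 lower.

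Of 8 tested flavonoid genes 1 was higher and 2 lower (0 and 1 in that setting), and CHIL, which encodes a chalcone isomerase-like protein, had the largest change (-2.42). Of 8 tested heat shock and chaperone genes 0 were higher and 2 lower, ATHSP22.0 by 2.47 and Cpn60beta2 by 1.59 on the log2 scale. In the WRKY family WRKY42 had -2.28, a call lost with signals below the floor set to the floor, while WRKY6 rose, and among tubulin genes TUB5 and TUB1 had 1.18 and -1.55. CYP78A9 and CYP71B38 were further P450 genes with large increases (3.71 and 3.04, or 2.75 and 2.32 with signals below the floor set to the floor). In that setting the stamen change minus the petal change was 0.59 for CYP78A9 and -1.10 for CYP71B38. Tau-class glutathione transferase genes were higher for 3 of 8, GSTU18 by 2.10, and lower for 1, GSTU20, and the higher call for GSTU16 was lost in 6 alternatives, among them quantile normalization. These families are given as values only, and no cause was tested.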
